A study of Mus musculus with 18 samples.

Results

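The ADAM, ADAMTS, ADAMTS-like, matrix metalloproteinase (MMP) and TIMP genes, with the membrane inhibitor gene Reck, were described in RNA of cultured mouse paw fibroblasts. Members were taken by gene symbol from the whole count table, and the MMP genes of the chromosome 9 cluster (among them Mmp3, Mmp10 and Mmp13) were left out by rule. Of 32285 gene identifiers 75 were members: 33 ADAM, 19 ADAMTS, 5 ADAMTS-like, 13 MMP and 4 TIMP genes, and Reck. The rule itself uses names and no measured value, although the gene families were picked with earlier results of these data known. Fibroblasts labelled as synovial were sorted from paws of mice of genotype WT and sequenced in 18 libraries, 3 in each of 6 groups. Cells of naïve mice received 10 ng/mL FGF2 (fibroblast growth factor 2, a mitogen) with 50 ng/mL OPN (osteopontin, a secreted ligand of integrins and CD44), FGF2 alone, OPN alone or neither factor. Cells of mice with K/BxN serum induced arthritis (STIA, joint inflammation passed on by arthritogenic serum) received 50 ng/mL OPN or no factor. Stimulation lasted 3 days. The sources used here do not give the age or sex of the mice, the gates of the sort or how long the unstimulated cells were cultured.

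ADAMs are mostly membrane-anchored proteinases that cut the outer part off other membrane proteins, such as growth factor precursors and cytokine receptors. ADAMTS enzymes are secreted, and different members cut the cartilage proteoglycan aggrecan, the propeptides of fibrillar collagens or the cartilage protein COMP, whereas ADAMTS-like proteins share their ancillary domains but have no proteinase domain. MMPs degrade matrix proteins and free matrix-bound factors, and TIMPs and the membrane protein RECK hold these enzymes in check. In arthritic joints, synovial fibroblasts are known as a main source of such enzymes.

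Library totals ran from 27527043 to 40357342 counts, and 3 counts corresponded to 0.0743 to 0.109 CPM (counts scaled to a library of 1e6), a floor that covers counting error only. Members took 0.764% to 1.06% of a library's counts. Of the 75 members, 8 had no count in any library, 11 had 1 to 20 counts over all libraries, and 53 passed the filter on low counts and were tested among 15072 genes. Levels are CPM on normalised library sizes, given in the order of the replicate numbers, and differences are log2 fold changes ± SE from edgeR's quasi-likelihood test with Benjamini-Hochberg adjustment over all 15072 genes, called at an adjusted p below 0.05. The labels do not say whether replicates were separate mice or cultures, so p-values measure only the spread between these libraries, and in bulk RNA fewer cells of a type and less RNA per cell cannot be told apart. Of the 18 libraries FGF2 replicate 2 departed most from its group mean over all genes (RMS of the log2 differences 0.277, elsewhere 0.196 to 0.242). The summed level of 10 pan-fibroblast markers was 23046 to 27909 CPM with FGF2+OPN, 19406 to 19852 CPM with FGF2, 47381 to 54239 CPM with OPN, 53505 to 57099 CPM in STIA cells with OPN, 45607 to 51015 CPM in unstimulated STIA cells and 61019 to 69555 CPM in naive cells. The sum was thus lower in both FGF2 groups, but the single markers were split. With FGF2 against naive cells 3 of the 10 were called higher and 4 lower (median log2 fold change -0.19). With FGF2+OPN against naive cells 6 were called higher and 4 lower (median 0.61). The part of this sum in the falls of members was not tested. The summed level of 10 macrophage markers was 20.4 to 22.1 CPM with FGF2+OPN, 46.4 to 52.3 CPM with FGF2, 16.6 to 20.8 CPM with OPN, 13.2 to 13.8 CPM in STIA cells with OPN, 13.8 to 14.4 CPM in unstimulated STIA cells and 13.2 to 14.6 CPM in unstimulated naive cells. Most of the FGF2 sum was Cd14, at 43.8 ± 3.12 CPM with FGF2 and 6.02 ± 0.582 CPM in naive cells, while Ptprc, Adgre1, C1qa, C1qb, Itgam and Fcgr1 had group means of 0.156 CPM or less everywhere. Summed endothelial markers held 7.15 to 16.5 CPM, keratinocyte markers 1.59 to 3.67 CPM and pericyte and smooth muscle markers 228 to 427 CPM over all libraries, and skeletal muscle markers, almost wholly Acta1, 58.4 to 75.1 CPM in unstimulated STIA cells, 23.2 to 27.1 CPM in STIA cells with OPN and 2.58 to 12.4 CPM in the other groups.

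Per length of exon, Timp1, Timp2 and Mmp2 stood at the top in every group. In CPM divided by exon length in kilobases, Timp2 had a mean level of 887 with FGF2+OPN, 755 with FGF2, 853 with OPN, 455 in STIA cells with OPN, 459.5 in STIA cells and 539 in naive cells. Timp1 had 532 with FGF2+OPN, 696 with FGF2, 643 with OPN, 921 in STIA cells with OPN, 953 in STIA cells and 807 in naive cells on the same scale. Timp2 was thus above Timp1 in the 3 groups that were naive cells given a factor, and Timp1 was above Timp2 in unstimulated naive cells and in both STIA groups. Mmp2 followed at 223 to 419 CPM per kilobase over the groups, and Mmp14, the membrane-type MMP that activates pro-MMP2 together with TIMP2, held 142 to 159.9. Adam9 was the highest ADAM in every group, at 89.3 to 115. Timp3 shifted its rank: with OPN it was at 197, above Mmp14, and with FGF2 at 22.6, below Adam8 at 74.6 and Adam19 at 44.7.

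**Figure D1:**
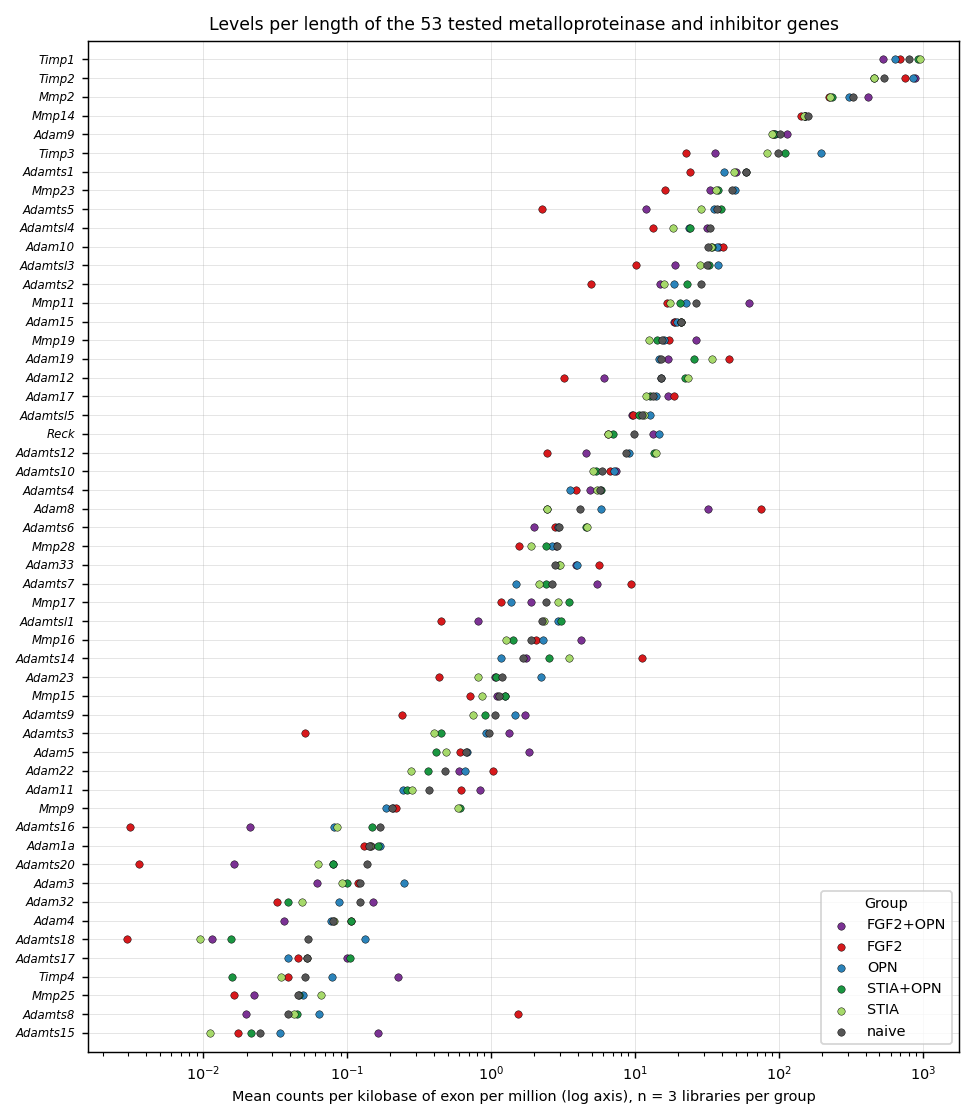
Mean level of the 53 tested genes (rows) in CPM per kilobase of exon on a log axis, with 1 coloured point per group (n = 3 libraries each). Timp1, Timp2 and Mmp2 lie at the right end in every group, while Timp3, Adam8 and Adamts5 have widely separated points.

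Over the 53 tested genes, FGF2 on naive cells moved more members down than up. With FGF2 against naive cells 11 rose and 27 fell, so 71.7% were called, and the median log2 fold change was -0.42; of all genes tested 57.1% were called, 29.1% higher and 28.1% lower, with a median of 0.0099. OPN against naive cells called 23 (13 rose and 10 fell, 43.4%), against 31.7% of all genes (15.2% higher and 16.5% lower). With FGF2+OPN against naive cells 19 rose and 17 fell (67.9%, against 49.8% of all genes, 23.7% higher and 26.1% lower). STIA against naive cells called 29, of which 5 rose and 24 fell (54.7%, against 36.8% of all genes, 18.6% higher and 18.2% lower). These 4 comparisons share the naive libraries. On library totals alone the split for FGF2+OPN against naive was 22 higher and 13 lower, since that scaling moved the all-gene median to 0.14.

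Adding OPN to FGF2 moved most members up. With FGF2+OPN against FGF2 alone 31 rose and 11 fell (79.2%, against 58.4% of all genes, 27.3% higher and 31.2% lower), and the median was 0.67, against -0.015 for all genes. This comparison and that of FGF2 against naive share the FGF2 libraries with opposite sign. A fall in one and a rise in the other are therefore not independent, here and for the gene groups below. In the same way, STIA against naive and OPN in STIA cells share the unstimulated STIA libraries with opposite sign. Opposite moves of a gene in those comparisons are likewise not independent, here and below. Adding FGF2 to OPN called 35 (20 rose and 15 fell, 66%), a share not far above the 56.5% of all genes (27.1% higher and 29.5% lower). The interaction, which tests whether the effect of both factors differs from the sum of the single effects, was positive for 28 members and negative for 11 (73.6%, against 51.2% of all genes, 24.1% higher and 27.2% lower). OPN moved few members in STIA cells: 4 rose and 2 fell of 53 (11.3%), against 2.17% of all genes (1.15% higher and 1.02% lower). The OPN effect itself differed between STIA and naive cells for 14 members, 9 with a more positive effect in STIA cells and 5 with a more negative one (26.4%, against 22.3% of all genes, 11.8% higher and 10.5% lower). For OPN in STIA cells the count fell to 1 without STIA replicate 1, STIA replicate 2 or STIA+OPN replicate 2, to 2 without STIA+OPN replicate 3 and to 3 without STIA+OPN replicate 1. Calls over all genes fell too, from 174 higher and 153 lower to 23 and 15 without STIA replicate 1. They were 45 and 36 without STIA replicate 2, and 31 and 13 without STIA+OPN replicate 2. Without STIA+OPN replicate 3 they were 61 and 51, and without STIA+OPN replicate 1 they were 48 and 28. For OPN against naive the count of members was 15 without naive replicate 2. All-gene calls there were 1691 higher and 1928 lower, against 2291 and 2492 with all libraries.

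**Figure D2:**
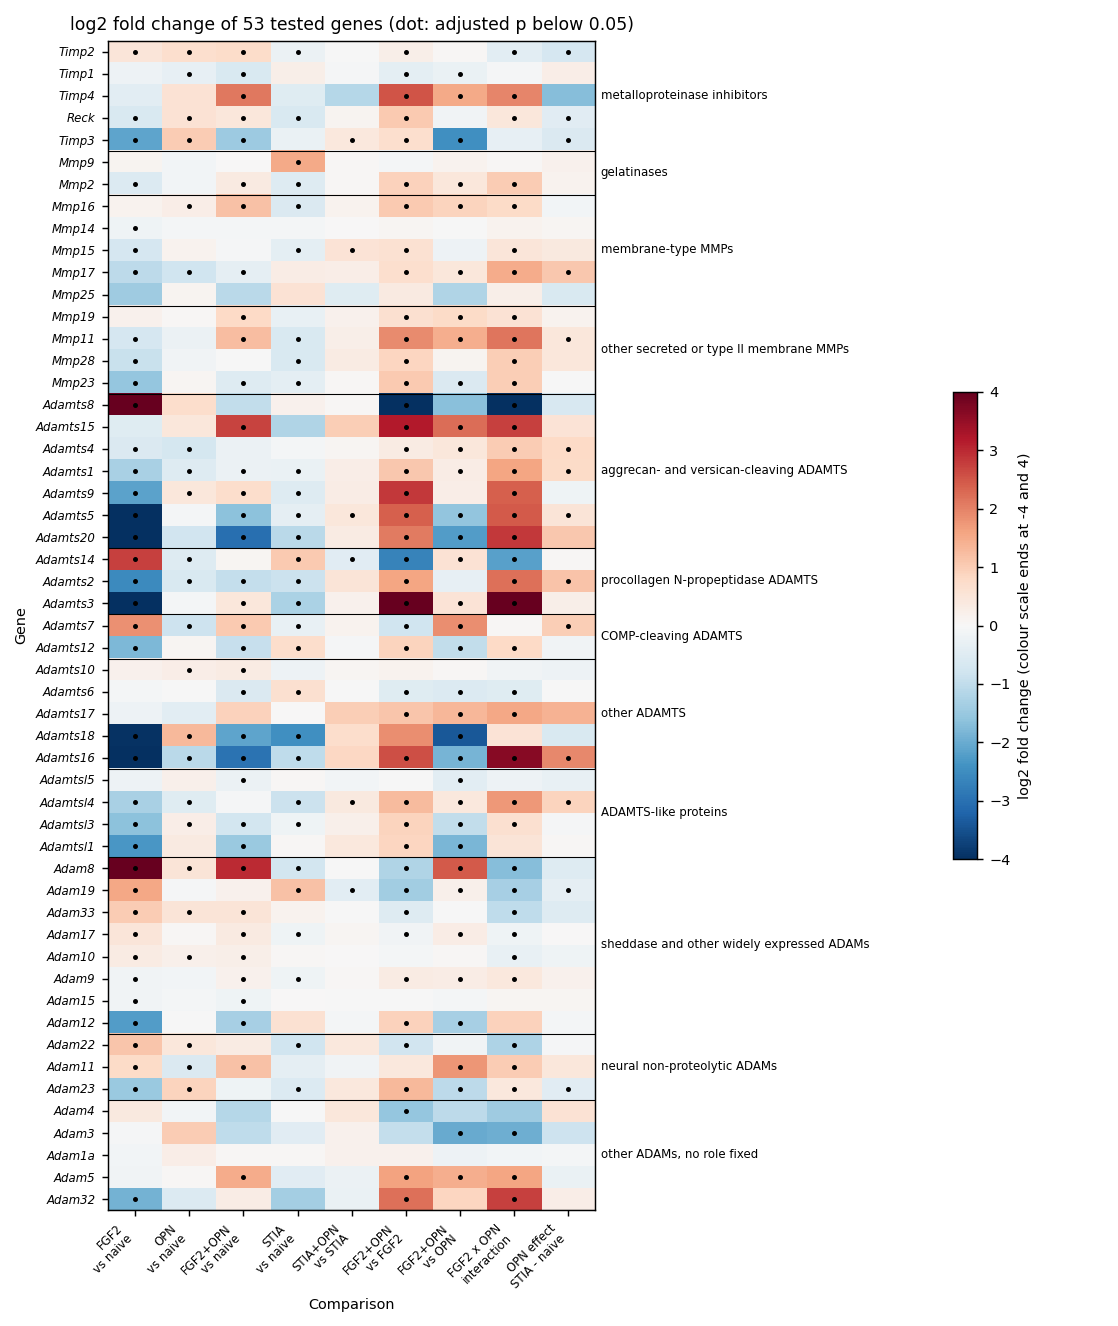
log2 fold change (colour, ends at -4 and 4) of the 53 tested genes (rows, grouped by role) in 9 comparisons (columns); a dot marks an adjusted p below 0.05. The FGF2 column holds 27 calls on the blue side and 11 on the red side, and the FGF2+OPN against FGF2 column holds 31 red and 11 blue calls.

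Among the inhibitors Timp3 (GRCm38 chr10:86300372-86349506, plus strand), which is bound to matrix and inhibits ADAM17 and the aggrecanases as well as MMPs, fell with FGF2 and rose with OPN. It stood at 263, 272 and 346 CPM with FGF2+OPN, 174, 190.4 and 189 CPM with FGF2, 1582, 1432 and 1791 CPM with OPN and 834, 712 and 848 CPM in naive cells. All OPN libraries lay above, and all FGF2 and FGF2+OPN libraries below, the naive ones. The log2 fold change was -1.44 ± 0.11 (adjusted p = 1.12e-09) for FGF2+OPN against naive, -2.11 ± 0.11 (adjusted p = 8.61e-13) for FGF2 and 1.00 ± 0.11 (adjusted p = 7.28e-07) for OPN, each against naive. Set against OPN alone, FGF2+OPN gave -2.45 ± 0.11, adjusted p = 5.31e-13, and set against FGF2 alone 0.67 ± 0.11, adjusted p = 1.90e-05. The interaction of -0.33 ± 0.15 (adjusted p = 0.0712) was not called, but was without OPN replicate 2 (adjusted p = 0.0340) and without FGF2+OPN replicate 3 (adjusted p = 0.00702), and with no filter on low counts (adjusted p = 0.00337). In STIA cells Timp3 had 791, 909 and 994 CPM with OPN and 623, 663 and 725 CPM without, and the groups did not overlap. That difference, 0.42 ± 0.11, adjusted p = 0.0409, was called, but leaving out any 1 of 5 of these 6 libraries gave adjusted p-values of 0.0506 to 0.224; the call was kept without STIA+OPN replicate 1. Timp3 lies within the gene Syn3 on the opposite strand, and 21.3% of its exon length is shared with it; the sources used here do not give the strand setting of the counting, so reads of the pair cannot be told apart.

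Timp2, the inhibitor that also bridges MMP14 and pro-MMP2, was higher with each factor in naive cells. It had 3416, 3419 and 3529 CPM with FGF2+OPN, 2748, 3263 and 2814 CPM with FGF2, 3238, 3396 and 3338 CPM with OPN and 2123, 2095 and 2077 CPM in naive cells. No stimulated library overlapped the naive ones, with log2 fold changes against naive of 0.72 ± 0.066 (adjusted p = 7.66e-09) for FGF2+OPN, 0.49 ± 0.066 (adjusted p = 1.11e-06) for FGF2 and 0.66 ± 0.066 (adjusted p = 1.43e-07) for OPN. The interaction was -0.43 ± 0.093, adjusted p = 4.94e-04, so that both factors together gave less than the sum of the single effects on this scale. STIA cells had 1781, 1705 and 1837 CPM with OPN and 1813, 1736 and 1822 CPM without, both below the naive range, and these 2 STIA groups overlapped. STIA against naive gave -0.23 ± 0.066, adjusted p = 0.00877, and FGF2+OPN against FGF2 gave 0.23 ± 0.066, adjusted p = 0.00438.

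Reck, whose product is anchored in the membrane by a lipid and inhibits several MMPs, rose with OPN and with FGF2+OPN and fell with FGF2 alone and in STIA cells. Its levels were 65.03, 65.8 and 60.7 CPM with FGF2+OPN, 28.95, 36.1 and 27.9 CPM with FGF2, 64.7, 70.6 and 75.3 CPM with OPN and 45.1, 48.5 and 47.1 CPM in naive cells. Against naive the log2 fold change was 0.45 ± 0.081 (adjusted p = 8.64e-05) for FGF2+OPN, -0.60 ± 0.083 (adjusted p = 1.75e-06) for FGF2 and 0.58 ± 0.081 (adjusted p = 1.16e-05) for OPN. STIA cells had 33.96, 31.7 and 35.5 CPM with OPN and 32.6, 29.03 and 31.1 CPM without, and STIA against naive gave -0.60 ± 0.083, adjusted p = 8.79e-06. In each of these comparisons with naive cells the libraries did not overlap, while the 2 STIA groups overlapped. The lead over FGF2 alone when OPN was added was 1.04 ± 0.083, adjusted p = 3.29e-10, and the interaction was 0.46 ± 0.12, adjusted p = 0.00196.

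Timp1, a secreted inhibitor that is widely induced in inflamed tissue, fell with OPN, alone and together with FGF2. It had 437, 412 and 567 CPM with FGF2+OPN, 642, 509 and 701 CPM with FGF2, 588, 573 and 552 CPM with OPN and 692, 745 and 715 CPM in naive cells. FGF2+OPN and OPN libraries lay below all naive ones, whereas FGF2 replicate 3 lay inside the naive range. FGF2+OPN against naive gave -0.60 ± 0.10, adjusted p = 5.61e-05. Set against FGF2 alone, FGF2+OPN gave -0.39 ± 0.10, adjusted p = 0.00286, with overlapping libraries and a call lost in the fit of the compared groups alone (adjusted p = 0.0641). FGF2+OPN against OPN gave -0.27 ± 0.10, adjusted p = 0.0279, also with overlap, and was not called without OPN replicate 1 or 2 or FGF2+OPN replicate 1 or 2 (adjusted p-values of 0.0594 to 0.156), in the fit of the compared groups alone (adjusted p = 0.0658) or on library totals alone (adjusted p = 0.197). OPN against naive gave -0.33 ± 0.10, adjusted p = 0.0184, a call lost without OPN replicate 3 (adjusted p = 0.0603) or naive replicate 2 (adjusted p = 0.0681). FGF2 against naive, at -0.22 ± 0.10, adjusted p = 0.0786, was not called; without FGF2 replicate 3 it was -0.32 (adjusted p = 0.0154), and with no filter on low counts -0.21 (adjusted p = 0.0109). In STIA cells Timp1 had 826, 830.4 and 798 CPM with OPN and 818, 889 and 833 CPM without, all above the naive libraries, and the log2 fold change of STIA against naive of 0.24 ± 0.10 (adjusted p = 0.0728) did not pass, while in the fit of the compared groups alone it was 0.24 (adjusted p = 0.00113) and with DESeq2 0.25 (adjusted p = 0.0476).

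The Timp1 start region is shown because the gene has a well-studied AP-1 type element, in this case the variant TGAGTAA, near its first bases; capitals mark the match, from the RefSeq promoter table (GRCm38.p6), plus strand, chrX:20870181-20870210, with the first base of the match 26 bases after the start.
Timp1 start region: cggtgggtggaTGAGTAAtgcgtccaggaa
The variant, searched on both strands in windows of 250 bases before to 50 bases after a start, was found in 1 of 47 member windows (44 genes matched) and in 2.68% of 32851 windows of all genes; a match of letters describes the sequence and shows no binding.

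Timp4, the TIMP best known from heart and fat tissue, was under 1 CPM outside FGF2+OPN. It had 1.31, 1.396 and 1.26 CPM with FGF2+OPN, 0.167, 0.4295 and 0.0908 CPM with FGF2, 0.377, 0.438 and 0.569 CPM with OPN and 0.4102, 0.248 and 0.243 CPM in naive cells. The FGF2+OPN libraries were above all others, with 2.11 ± 0.41, adjusted p = 1.77e-04 against naive, 2.53 ± 0.43, adjusted p = 2.44e-05 against FGF2 and 1.53 ± 0.38, adjusted p = 0.00147 against OPN. Without FGF2 replicate 2 the difference from FGF2 was 3.33 (adjusted p = 4.62e-06). The interaction of 1.94 ± 0.64 (adjusted p = 0.0143) missed the threshold without FGF2 replicate 3 (adjusted p = 0.0521) or naive replicate 1 (adjusted p = 0.0682), and was 2.75 (adjusted p = 0.00155) without FGF2 replicate 2. Of the 5 inhibitors 1 rose and 2 fell with FGF2 against naive (57.1% of all genes called), 3 rose and 1 fell with OPN (31.7% of all genes), 3 rose and 2 fell with FGF2+OPN (49.8%), and 2 fell in STIA cells (36.8%). For FGF2 and STIA these counts are near those shares.

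The gelatinases were unequal in level and in direction. Mmp2 (chr8:92827291-92853420, plus strand), the constitutive gelatinase of fibroblasts, had 1358, 1439.5 and 1437 CPM with FGF2+OPN, 656, 975 and 621 CPM with FGF2, 1042, 905 and 1154 CPM with OPN and 1069, 1180.1 and 1068 CPM in naive cells. FGF2 libraries lay below and FGF2+OPN libraries above the naive ones, while the OPN libraries overlapped them. The FGF2 effect against naive was -0.56 ± 0.12, adjusted p = 6.63e-04, and FGF2+OPN against FGF2 was 0.91 ± 0.12, adjusted p = 3.58e-06, with an interaction of 1.01 ± 0.17, adjusted p = 7.96e-05. Set against OPN, FGF2+OPN gave 0.45 ± 0.12, adjusted p = 0.00415. FGF2+OPN against naive was 0.35 ± 0.12, adjusted p = 0.0223; this call was lost when FGF2+OPN replicate 2 or 3, or naive replicate 1 or 3, was left out (adjusted p-values of 0.0685 to 0.0804). STIA cells had 799.8, 769.8 and 793 CPM of Mmp2 with OPN and 734, 750.5 and 816 CPM without, below the naive range in all 6 libraries, and STIA against naive was -0.53 ± 0.12, adjusted p = 0.00235.

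Mmp9, the gelatinase best known from neutrophils, macrophages and osteoclasts, was low everywhere but higher in STIA cells. It had 2.31, 1.704 and 2.44 CPM in STIA cells with OPN, 1.93, 2.15 and 2.17 CPM in unstimulated STIA cells and 0.694, 0.496 and 0.972 CPM in naive cells. STIA and naive libraries did not overlap, with 1.52 ± 0.30, adjusted p = 3.82e-04. The stimulated naive groups held 0.3998 to 1.06 CPM and overlapped the unstimulated naive cells, and no comparison of Mmp9 other than STIA against naive was called. Beside this, S100a9 had no count in any library. The summed level of 8 neutrophil and lymphocyte markers was 0.0330 to 0.0733 CPM in STIA cells with OPN and 0.142 to 0.291 CPM in unstimulated STIA cells. It was 0.399 to 0.663 CPM with FGF2+OPN, 1.60 to 2.71 CPM with FGF2, 0.167 to 0.206 CPM with OPN and 0 to 0.0347 CPM in naive cells. The macrophage marker sums of STIA and naive cells overlapped, and the part of such cells in the Mmp9 level was not tested.

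Of the other MMPs, Mmp11 rose with the pair of factors and with neither alone. Mmp11, a stromelysin that furin activates inside the cell, had 173, 177 and 169.6 CPM with FGF2+OPN, 42.9, 54.6 and 41.6 CPM with FGF2, 59.8, 55.6 and 73.9 CPM with OPN and 72.3, 75.9 and 72.8 CPM in naive cells. The FGF2+OPN libraries were above all others, and the FGF2 libraries were below all naive ones. FGF2+OPN gave 1.23 ± 0.097, adjusted p = 2.24e-09 against naive, 1.90 ± 0.0996, adjusted p = 1.80e-12 against FGF2 and 1.46 ± 0.097, adjusted p = 1.40e-10 against OPN. Mmp16, a membrane-type MMP, was also highest with FGF2+OPN, at 34.8, 39.1 and 35.8 CPM with FGF2+OPN, 18.3, 18.1 and 17.3 CPM with FGF2, 18.4, 21.1 and 19.9 CPM with OPN and 17.4, 16.2 and 15.5 CPM in naive cells, with 1.16 ± 0.084, adjusted p = 1.81e-10 for FGF2+OPN against naive. All 4 tested members of the secreted and type II membrane MMPs (Mmp11, Mmp19, Mmp23 and Mmp28) rose with FGF2+OPN against FGF2 (27.3% of all genes), and 3 of them had fallen with FGF2 against naive (28.1% of all genes). Mmp19, for which 28.3% of the exon length is shared with genes on the opposite strand, had 94.3 ± 7.15 CPM with FGF2+OPN and 60.9 ± 19.9 CPM with FGF2 (SD, n = 3 each).

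Mmp14 (MT1-MMP), the collagenase at the fibroblast surface, varied little. It had 897, 893 and 911 CPM with FGF2+OPN, 789.5, 975 and 776 CPM with FGF2, 918, 891 and 925 CPM with OPN and 929.7, 974 and 955 CPM in naive cells, and STIA cells had 906, 887 and 904 CPM with OPN and 876, 890.5 and 924 CPM without. The FGF2 and naive libraries overlapped, because FGF2 replicate 2 lay above all 3 naive ones. FGF2 against naive was -0.17 ± 0.069, adjusted p = 0.0389, a call that leaving out FGF2 replicate 1 or 3, or naive replicate 2 or 3, removed (adjusted p-values of 0.0785 to 0.212), as did library totals alone (adjusted p = 0.221). FGF2+OPN against FGF2, 0.088 ± 0.069, adjusted p = 0.282, was not called, but without FGF2 replicate 2 it was 0.20 (adjusted p = 0.00411) and on library totals alone 0.15 (adjusted p = 0.0415). The interaction of 0.15 ± 0.097 (adjusted p = 0.199) was likewise called without that library (0.27, adjusted p = 0.00481). Mmp15, another membrane-type MMP, had 6.67, 7.23 and 6.37 CPM in STIA cells with OPN and 4.98, 4.55 and 4.47 CPM in STIA cells without it. These libraries did not overlap and gave 0.53 ± 0.13, adjusted p = 0.03197, but no leave-one-out fit kept the call (adjusted p-values of 0.0657 to 0.168). Mmp17, which has a lipid anchor, fell with OPN in naive cells, at 10.17, 8.47 and 8.63 CPM with OPN and 16.5, 15.7 and 15.7 CPM without (-0.81 ± 0.13, adjusted p = 9.13e-05). Mmp24 and Mmp25 were under 1 CPM in every library.

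**Figure D3:**
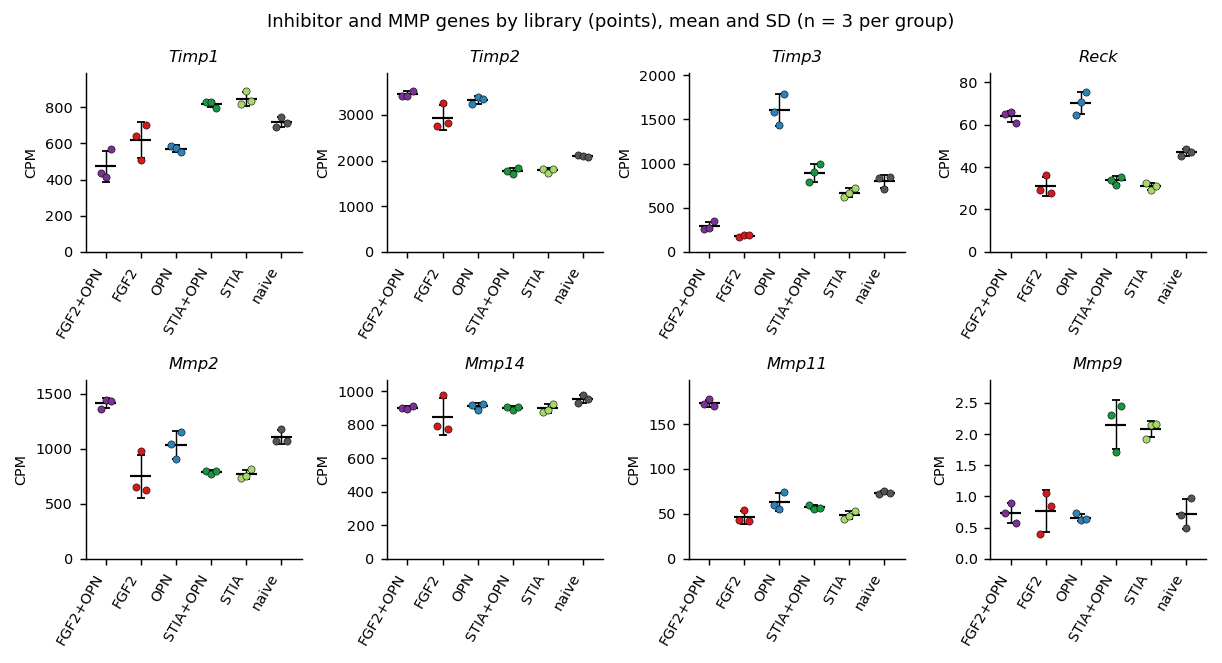
Level in CPM (y axes, from 0) of 4 inhibitor and 4 MMP genes in each library (points) of the 6 groups (x axis), with the group mean (line) and SD (bar, n = 3). Timp3 is highest with OPN and lowest with FGF2, Mmp11 is highest with FGF2+OPN, and Mmp9 is higher in both STIA groups than in the naive groups.

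Among the aggrecan- and versican-cleaving ADAMTS genes, 1 rose and 5 fell of 7 with FGF2 against naive (29.1% of all genes higher and 28.1% lower). With FGF2+OPN against FGF2 6 rose and 1 fell (27.3% higher and 31.2% lower). Of these, the rise of Adamts4 was lost under 5 alternatives. That of Adamts20 was lost in the fit of the compared groups alone and without FGF2 replicate 1 or 3. Adamts20 had only 6, 4 and 5 counts with FGF2+OPN and 0, 2 and 1 with FGF2. Adamts5 (chr16:85856173-85901828, minus strand), the main aggrecanase of mouse cartilage, had 119, 132 and 134 CPM with FGF2+OPN, 25.6, 21.5 and 26.1 CPM with FGF2, 352, 411 and 386 CPM with OPN and 426, 385 and 391 CPM in naive cells. Every FGF2 library was far below every naive one, the FGF2+OPN libraries lay between them, and the OPN libraries overlapped the naive range. With FGF2 alone the log2 fold change against naive was -4.04 ± 0.11, adjusted p = 8.74e-18, FGF2+OPN against naive -1.64 ± 0.095, adjusted p = 1.25e-11, and FGF2+OPN against FGF2 2.40 ± 0.10, adjusted p = 3.90e-14. OPN against naive was -0.066 ± 0.092, adjusted p = 0.626 and was not called, and the interaction was 2.46 ± 0.14, adjusted p = 5.38e-12. FGF2+OPN against OPN was -1.58 ± 0.095, adjusted p = 1.71e-11. STIA cells had 396, 428 and 463 CPM of Adamts5 with OPN and 289, 280.3 and 367 CPM without. STIA against naive was -0.36 ± 0.092, adjusted p = 0.004095, and OPN in STIA cells gave 0.46 ± 0.092, adjusted p = 0.0137, with adjusted p-values of 0.0655 to 0.113 without STIA replicate 1 or 2, or STIA+OPN replicate 2 or 3.

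Adamts1, a versican- and aggrecan-cleaving enzyme that is also known from ovulation, lies next to Adamts5 on chromosome 16, on the same strand and 53059 bases apart with 1 gene between. It had 244, 288 and 268 CPM with FGF2+OPN, 119, 145 and 117 CPM with FGF2, 201, 238 and 217 CPM with OPN and 306, 323 and 305 CPM in naive cells. FGF2 libraries were below all others, and OPN libraries were below the naive range. The fall with FGF2 against naive was -1.30 ± 0.084, adjusted p = 5.06e-12, OPN against naive -0.51 ± 0.082, adjusted p = 6.46e-05, and FGF2+OPN against FGF2 1.07 ± 0.083, adjusted p = 2.45e-10. FGF2+OPN against OPN was 0.29 ± 0.082, adjusted p = 0.00517, and the interaction was 1.58 ± 0.12, adjusted p = 1.87e-10. FGF2+OPN against naive, -0.23 ± 0.082, adjusted p = 0.0265, was not called without FGF2+OPN replicate 1 (adjusted p = 0.143), without naive replicate 2 (adjusted p = 0.0830) or on library totals alone (adjusted p = 0.402). STIA cells had 311, 311 and 314 CPM with OPN and 251, 243 and 287 CPM without. STIA against naive was -0.26 ± 0.082, adjusted p = 0.0167, a call lost without STIA replicate 1 or 2 or naive replicate 2 (adjusted p-values of 0.0627 to 0.0920). Adamts4, the aggrecanase that inflammatory cytokines induce, had 21.2, 24.1 and 24.8 CPM with FGF2+OPN, 16.9, 23.4 and 15.7 CPM with FGF2, 19.3, 13.5 and 18.6 CPM with OPN and 28.4, 28.4 and 26.3 CPM in naive cells. It fell with FGF2, at -0.57 ± 0.13, adjusted p = 7.49e-04, and with OPN, at -0.69 ± 0.13, adjusted p = 3.68e-04, each against naive, and the libraries did not overlap in either case. With FGF2+OPN against naive it gave -0.25 ± 0.13, adjusted p = 0.112, which was not called, although it was in the fit of the compared groups alone (adjusted p = 0.0438) and with no filter (adjusted p = 0.0200). FGF2+OPN against FGF2 gave 0.32 ± 0.13, adjusted p = 0.03797 with overlapping libraries, and the call was lost without FGF2 replicate 1 or 3 or FGF2+OPN replicate 2 or 3 (adjusted p-values of 0.0983 to 0.201) and in the fit of the compared groups alone (adjusted p = 0.0534). FGF2+OPN against OPN gave 0.45 ± 0.13, adjusted p = 0.00578, and the interaction was 1.02 ± 0.18, adjusted p = 9.56e-05. STIA against naive gave -0.074 ± 0.13, adjusted p = 0.685 for Adamts4, with overlapping libraries.

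Adamts8 and Adamts15 lie head to head on chromosome 9, 20109 bases apart with no gene between, and were high in different groups. Adamts8 (chr9:30942562-30963838, plus strand), which can cut aggrecan, had 0.0502, 0.0332 and 0.189 CPM with FGF2+OPN, 3.499, 14.1 and 3.75 CPM with FGF2, 0.251, 0.3604 and 0.268 CPM with OPN and 0.252, 0.248 and 0.0347 CPM in naive cells. All 3 FGF2 libraries were above all others, and FGF2 replicate 2 was well above the other two; outside FGF2 these values stand for 1 to 14 counts a library. The FGF2 rise against naive was 5.28 ± 0.66, adjusted p = 2.08e-06, and without FGF2 replicate 2 it was 4.30 (adjusted p = 8.32e-08). FGF2+OPN against FGF2 was -6.26 ± 0.72, adjusted p = 8.46e-07, with -5.29 (adjusted p = 1.34e-08) without that library and -7.25 (adjusted p = 1.38e-05) without FGF2+OPN replicate 3. The interaction of Adamts8 was -6.96 ± 1.23, adjusted p = 1.45e-04, with -5.99 (adjusted p = 2.36e-06) without FGF2 replicate 2 and -7.95 (adjusted p = 3.83e-04) without FGF2+OPN replicate 3. Adamts15 had 1.68, 1.99 and 1.39 CPM with FGF2+OPN, 0.0333, 0.3304 and 0.182 CPM with FGF2, 0.326, 0.463 and 0.268 CPM with OPN and 0.316, 0.177 and 0.278 CPM in naive cells. Its FGF2+OPN libraries were above all others, with 2.23 ± 0.42, adjusted p = 9.11e-05 against OPN. Adamts9, which cleaves versican and aggrecan, had 23.4, 27.7 and 27.2 CPM with FGF2+OPN, 2.87, 4.295 and 3.72 CPM with FGF2, 21.2, 17.8 and 26.9 CPM with OPN and 15.96, 14.8 and 16.98 CPM in naive cells. FGF2 libraries were the lowest and FGF2+OPN libraries were above the naive range, with 2.84 ± 0.16, adjusted p = 2.04e-12 for FGF2+OPN against FGF2 and an interaction of 2.38 ± 0.21, adjusted p = 5.53e-09. The exons of Adamts9 share 12.0% of their length, and those of Adamts8 10.6%, with genes on the opposite strand.

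The procollagen N-propeptidases, which trim the amino-terminal propeptide of fibrillar collagens, split by gene. Adamts2, the enzyme of type I procollagen, had 116, 141 and 159 CPM with FGF2+OPN, 41.6, 61.3 and 36.5 CPM with FGF2, 173, 155 and 196 CPM with OPN and 257, 284 and 266 CPM in naive cells. All stimulated libraries lay below the naive ones, with -0.96 ± 0.16, adjusted p = 1.43e-04 for FGF2+OPN, -2.54 ± 0.17, adjusted p = 3.49e-09 for FGF2 and -0.62 ± 0.16, adjusted p = 0.00735 for OPN. Adamts3, known for type II procollagen and for the lymphatic growth factor VEGF-C, had 5.77, 8.94 and 7.07 CPM with FGF2+OPN, 0.167, 0.264 and 0.394 CPM with FGF2, 4.77, 4.53 and 5.62 CPM with OPN and 5.52, 4.82 and 5.35 CPM in naive cells. It was nearly lost with FGF2 alone (-4.21 ± 0.27, adjusted p = 3.41e-12) and above the naive libraries with FGF2+OPN (4.68 ± 0.26, adjusted p = 7.47e-13 against FGF2). Adamts14, the third of these enzymes, moved the opposite way, with 8.96, 9.17 and 9.25 CPM with FGF2+OPN, 56.2, 66.4 and 51.6 CPM with FGF2, 6.73, 5.56 and 5.95 CPM with OPN and 9.09, 9.49 and 7.397 CPM in naive cells. The rise over naive with FGF2 was 2.74 ± 0.11, adjusted p = 7.73e-16, and FGF2+OPN against FGF2 was -2.67 ± 0.11, adjusted p = 4.00e-15, with no overlap in either comparison, while the FGF2+OPN and naive libraries overlapped. The interaction was 2.20 ± 0.23, adjusted p = 1.22e-06 for Adamts2, 4.76 ± 0.32, adjusted p = 4.85e-11 for Adamts3 and -2.16 ± 0.16, adjusted p = 1.34e-10 for Adamts14.

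The same split was seen in STIA cells. Adamts14 had 13.8, 12.3 and 13.2 CPM in STIA cells with OPN and 16.5, 17.8 and 19.8 CPM in unstimulated STIA cells. It rose in STIA against naive cells (1.06 ± 0.11, adjusted p = 1.72e-07) and was lower with OPN in STIA cells (-0.46 ± 0.10, adjusted p = 0.0245), although no leave-one-out fit kept this last call (adjusted p-values of 0.0542 to 0.138). Adamts2 had 216, 210.1 and 213 CPM in STIA cells with OPN and 131, 149.5 and 165 CPM in unstimulated STIA cells, and fell in STIA against naive cells (-0.86 ± 0.16, adjusted p = 6.49e-04). Adamts3 had 2.86, 2.402 and 2.08 CPM in STIA cells with OPN and 2.15, 1.75 and 2.63 CPM in unstimulated STIA cells, and also fell (-1.27 ± 0.19, adjusted p = 2.57e-05). In the 3 unstimulated STIA libraries Adamts14 was thus above, and Adamts2 and Adamts3 below, every naive library.

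The pair that cleaves COMP also went in opposite directions with FGF2. Adamts7 had 32.97, 36.3 and 33.9 CPM with FGF2+OPN, 55.8, 70.3 and 51.6 CPM with FGF2, 8.59, 9.396 and 10.24 CPM with OPN and 15.7, 18.2 and 16.3 CPM in naive cells. FGF2 and FGF2+OPN libraries lay above, and OPN libraries below, the naive ones, with 1.82 ± 0.097, adjusted p = 1.72e-13 for FGF2, -0.84 ± 0.10, adjusted p = 2.84e-06 for OPN and 1.87 ± 0.10, adjusted p = 1.12e-12 for FGF2+OPN against OPN. FGF2+OPN against FGF2 was -0.78 ± 0.092, adjusted p = 1.71e-07. Adamts12 had 45.7, 51.4 and 51.8 CPM with FGF2+OPN, 27.9, 19.6 and 33.1 CPM with FGF2, 95.7, 103 and 97.1 CPM with OPN and 101, 90.7 and 90.3 CPM in naive cells. It was lowest with FGF2, and in unstimulated STIA cells, at 153, 147 and 161 CPM, it was above the naive range (0.71 ± 0.12, adjusted p = 1.25e-04). Comp itself, the substrate, had 1678 ± 249 CPM with FGF2+OPN, 84.9 ± 22.1 CPM with FGF2, 3419 ± 88.8 CPM with OPN and 2361 ± 146 CPM in naive cells (SD, n = 3 each).

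Of the remaining ADAMTS genes, Adamts6 and Adamts10, which act on fibrillin microfibrils, were the only 2 with at least 10 CPM. Adamts6 had 37.9, 35.3 and 34.8 CPM in unstimulated STIA cells and 25.6, 22.1 and 21.5 CPM in naive cells, without overlap (0.64 ± 0.093, adjusted p = 1.51e-05). Adamts10 had group means of 42.1 to 61.1 CPM. Adamts16, Adamts18 and Adamts20 were low, almost absent with FGF2 and also reduced with FGF2+OPN, at means of 0.144, 0.116 and 0.147 CPM. Adamts20 is counted above among the aggrecan- and versican-cleaving genes. Adamts18 had means of 0.0965 CPM in unstimulated STIA cells and 0.160 CPM in STIA cells with OPN. In naive cells with OPN its mean was higher, at 1.36 CPM. Adamts20 had 0, 0.0661 and 0.0303 CPM with FGF2 and 0.915, 1.17 and 1.597 CPM in naive cells, Adamts16 had 0, 0.03304 and 0.0303 CPM with FGF2 and 1.104, 1.13 and 1.25 CPM in naive cells, and Adamts18 had 0, 0 and 0.0908 CPM with FGF2 and 0.726, 0.425 and 0.486 CPM in naive cells. The FGF2 values of these genes were at or under the floor of 3 counts in each library. Adamts13, the von Willebrand factor-cleaving enzyme of liver and blood, and Adamts19 had 14 and 10 counts over all libraries and were not tested.

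Among the ADAMTS-like genes 3 of 4 tested fell with FGF2 against naive (28.1% of all genes), and 3 rose with FGF2+OPN against FGF2 (27.3% of all genes). Adamtsl1 had 8.29, 10.4 and 12.6 CPM with FGF2+OPN, 4.73, 7.302 and 5.09 CPM with FGF2, 38.8, 30.02 and 42.1 CPM with OPN and 29.4, 29.8 and 27.3 CPM in naive cells. FGF2 and FGF2+OPN libraries were below all naive and OPN libraries, with -2.34 ± 0.17, adjusted p = 1.14e-09 for FGF2 against naive and -1.47 ± 0.16, adjusted p = 5.38e-07 for FGF2+OPN against naive, and -1.83 ± 0.16, adjusted p = 2.34e-08 for FGF2+OPN against OPN. Adamtsl4, which binds fibrillin-1 and is mutated in human inherited lens dislocation, had 101, 99.9 and 103 CPM in STIA cells with OPN, 75.5, 76.9 and 78.2 CPM in unstimulated STIA cells and 135, 139.8 and 142 CPM in naive cells. It fell in STIA against naive cells (-0.86 ± 0.050, adjusted p = 7.05e-11) and rose with OPN in STIA cells (0.40 ± 0.050, adjusted p = 4.35e-04), and the libraries of the 3 groups did not overlap. Both comparisons use the unstimulated STIA libraries, so this fall and this rise are not independent. In naive-derived cells it had 128, 134 and 139.7 CPM with FGF2+OPN, 55.8, 56.7 and 56.2 CPM with FGF2 and 97.1, 98.3 and 104 CPM with OPN. Adamtsl3 had 147 ± 8.29 CPM with FGF2+OPN, 79.2 ± 0.6798 CPM with FGF2, 293 ± 17.8 CPM with OPN and 245 ± 1.02 CPM in naive cells (SD, n = 3 each).

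Of the ADAMs, Adam8 and Adam19 had the largest rises with FGF2 against naive. Adam8 (chr7:139978932-139992562, minus strand), a sheddase known from leukocytes and osteoclasts, had 154, 147 and 148 CPM with FGF2+OPN, 299, 448 and 291 CPM with FGF2, 28.3, 29.5 and 23.5 CPM with OPN and 20.7, 18.2 and 18.4 CPM in naive cells. The groups did not overlap, and FGF2 replicate 2 was the highest library. The rise with FGF2 against naive was 4.18 ± 0.16, adjusted p = 1.99e-12. FGF2+OPN gave 2.97 ± 0.16, adjusted p = 4.13e-10 against naive, -1.21 ± 0.14, adjusted p = 2.10e-06 against FGF2 and 2.46 ± 0.15, adjusted p = 1.77e-09 against OPN, and the interaction was -1.71 ± 0.21, adjusted p = 5.77e-06. STIA cells had 12.3, 9.58 and 12.3 CPM with OPN and 13.1, 10.3 and 10.9 CPM without, below all naive libraries (-0.74 ± 0.17, adjusted p = 0.00304 for unstimulated STIA against naive). Beside the FGF2 rise, the macrophage marker sum was 46.4 to 52.3 CPM with FGF2 and 13.2 to 14.6 CPM in naive cells, with Ptprc, the pan-leukocyte gene, at 0.0956 ± 0.0274 CPM with FGF2 and no count in naive cells, and Csf1r at 0.478 ± 0.121 CPM with FGF2 and 2.92 ± 0.532 CPM in naive cells; the neutrophil and lymphocyte sum, mostly Ly6g, was 1.60 to 2.71 CPM with FGF2 and 0 to 0.0347 CPM in naive cells. The part of leukocytes in the Adam8 level was not tested.

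Adam19 (meltrin beta), a sheddase of neuregulin, had 115, 123 and 126 CPM with FGF2+OPN, 316, 310.5 and 328 CPM with FGF2, 105, 122 and 85.6 CPM with OPN and 110.2, 114 and 101 CPM in naive cells. FGF2 libraries were above all others, and those of OPN overlapped the naive ones. For FGF2 against naive the log2 fold change was 1.56 ± 0.092, adjusted p = 2.84e-12, and FGF2+OPN against FGF2 was -1.39 ± 0.091, adjusted p = 3.23e-11, with an interaction of -1.34 ± 0.13, adjusted p = 2.22e-08. In STIA cells Adam19 had 185, 167 and 195 CPM with OPN and 254, 245 and 229 CPM without, all above the naive range. STIA against naive was 1.16 ± 0.091, adjusted p = 7.42e-09. It fell with OPN in STIA cells (-0.41 ± 0.090, adjusted p = 0.0217), a call lost without STIA replicate 1 or 2, or STIA+OPN replicate 1 or 2 (adjusted p-values of 0.0689 to 0.132). Of its exon length 10.1% is shared with genes on the opposite strand.

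The stretches upstream of the starts of Adam19 and Adam8 are shown because both genes rose with FGF2 and were lower again with OPN added. They are the 250 bases before the RefSeq start (GRCm38.p6) on each gene's strand, chr11:46055734-46055983 (plus) and chr7:139992563-139992812 (minus). Capitals mark a match to the AP-1 consensus TGANTCA, whose first base lies 131 bases before the start of Adam19.
Adam19 upstream: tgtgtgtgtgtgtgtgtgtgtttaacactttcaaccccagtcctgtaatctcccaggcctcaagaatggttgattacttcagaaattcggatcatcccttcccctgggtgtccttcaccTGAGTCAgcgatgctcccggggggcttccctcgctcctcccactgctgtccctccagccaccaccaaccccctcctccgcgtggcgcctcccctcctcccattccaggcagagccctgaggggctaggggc
Adam8 upstream: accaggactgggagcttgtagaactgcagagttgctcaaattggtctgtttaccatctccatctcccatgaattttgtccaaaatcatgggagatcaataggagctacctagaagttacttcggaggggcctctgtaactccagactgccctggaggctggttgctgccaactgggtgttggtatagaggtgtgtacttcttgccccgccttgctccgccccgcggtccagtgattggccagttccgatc
RefSeq gives further starts for Adam19, and the one nearest to the start of the deposited gene record is shown. On both strands of the 300-base windows the AP-1 consensus was found in 5 of 47 member windows (10.64%; Adam19, Adam1b, Adam20, Adam25 and Adam29) and in 7.81% of all 32851 windows; all of these but Adam19 had 9 counts or fewer over all libraries. The Adam8 window held none of the 4 motifs searched. The ETS motif CCGGAAG was in the windows of Adam15 and Adam17 (2 of 47, against 8.86% of all windows), and TATAAA in 6 of 47 (against 13.62%), among them Adamts1, at 32 bases before the start. No stretch can match both AP-1 forms at the same place, and these matches describe the windows only.

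Adam12 (meltrin alpha), which is linked to muscle and fat cell formation and is high in activated stromal cells, fell with FGF2. It had 57.6, 65.5 and 69.2 CPM with FGF2+OPN, 35.2, 13.9 and 52.4 CPM with FGF2, 161, 142 and 179 CPM with OPN and 171, 157 and 154 CPM in naive cells. FGF2 replicate 2 was the lowest library, and all FGF2 libraries were below all FGF2+OPN libraries, which were below the naive ones. The FGF2 fall against naive was -2.24 ± 0.31, adjusted p = 3.03e-05, and FGF2+OPN against naive was -1.33 ± 0.29, adjusted p = 0.00223. FGF2+OPN against OPN was -1.33 ± 0.29, adjusted p = 0.00185. FGF2+OPN against FGF2 was 0.92 ± 0.30, adjusted p = 0.0196, a call lost without FGF2+OPN replicate 3 (adjusted p = 0.0527) and in the fit of the compared groups alone (adjusted p = 0.144). The interaction, 0.92 ± 0.42, adjusted p = 0.0842, was not called, but was without FGF2 replicate 2 (0.55, adjusted p = 0.0107) or without FGF2 replicate 3 (1.39, adjusted p = 0.00469), and with no filter on low counts (adjusted p = 1.16e-16). STIA cells had 237, 225 and 245 CPM with OPN and 241, 249.7 and 252 CPM without, all above the naive libraries, yet STIA against naive, 0.62 ± 0.29, adjusted p = 0.109, was not called in the fit that shares 1 spread over the 6 groups; fitted on the compared groups only it was 0.63 (adjusted p = 8.73e-09) and with no filter 0.62 (adjusted p = 2.07e-16).

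The general sheddases had small differences. Adam17, the TNF-alpha converting enzyme, had 123, 127 and 116 CPM with FGF2+OPN, 131, 140.5 and 128 CPM with FGF2, 98.1, 98.7 and 102 CPM with OPN and 92.5, 93.9 and 101 CPM in naive cells. FGF2 against naive was 0.47 ± 0.054, adjusted p = 7.62e-08 and FGF2+OPN against naive was 0.35 ± 0.054, adjusted p = 1.38e-05, in both cases without overlap. FGF2+OPN against OPN was 0.29 ± 0.054, adjusted p = 7.66e-05. In STIA cells Adam17 had 91.99, 88.03 and 92.1 CPM with OPN and 85.4, 85.8 and 86.9 CPM without. The difference of STIA from naive was -0.16 ± 0.054, adjusted p = 0.02701, a call lost without any 1 STIA library or naive replicate 3 (adjusted p-values of 0.0503 to 0.143), on library totals alone (adjusted p = 0.0549) and with no filter on low counts (adjusted p = 0.121). FGF2+OPN against FGF2 (-0.13 ± 0.053, adjusted p = 0.0418) and the interaction (-0.18 ± 0.076, adjusted p = 0.0489) of Adam17 were close to the threshold and were not called under most alternatives. Their adjusted p-values ran up to 0.344 and 0.182 on library totals alone. Adam10, the sheddase of Notch receptors, had 192, 199 and 173 CPM with FGF2+OPN, 192, 207 and 204 CPM with FGF2, 185, 181 and 183 CPM with OPN and 170.2, 148 and 158 CPM in naive cells. All stimulated libraries were above the naive ones. Against naive the log2 fold change of Adam10 was 0.24 ± 0.062 (adjusted p = 0.00236) for FGF2+OPN and 0.34 ± 0.062 (adjusted p = 6.82e-05) for FGF2; for OPN it was 0.20 ± 0.062 (adjusted p = 0.0151), a call lost without naive replicate 2 (adjusted p = 0.101). The interaction of Adam10 was -0.30 ± 0.088, adjusted p = 0.007097. Adam9 held 472 ± 11.6 CPM with FGF2+OPN, 377 ± 3.71 CPM with FGF2, 388 ± 1.43 CPM with OPN and 417 ± 4.18 CPM in naive cells (SD, n = 3 each), and Adam15, with 20.6% of its exon length shared with a gene on the opposite strand, kept group means of 115 to 129 CPM. Adam33, the human counterpart of which was linked to asthma, had 18.4, 23.01 and 22.4 CPM with OPN and 14.6, 16.9 and 13.2 CPM in naive cells (0.51 ± 0.17, adjusted p = 0.0261), a call lost without OPN replicate 2 or 3, or naive replicate 1 or 3 (adjusted p-values of 0.0741 to 0.104).

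**Figure D4:**
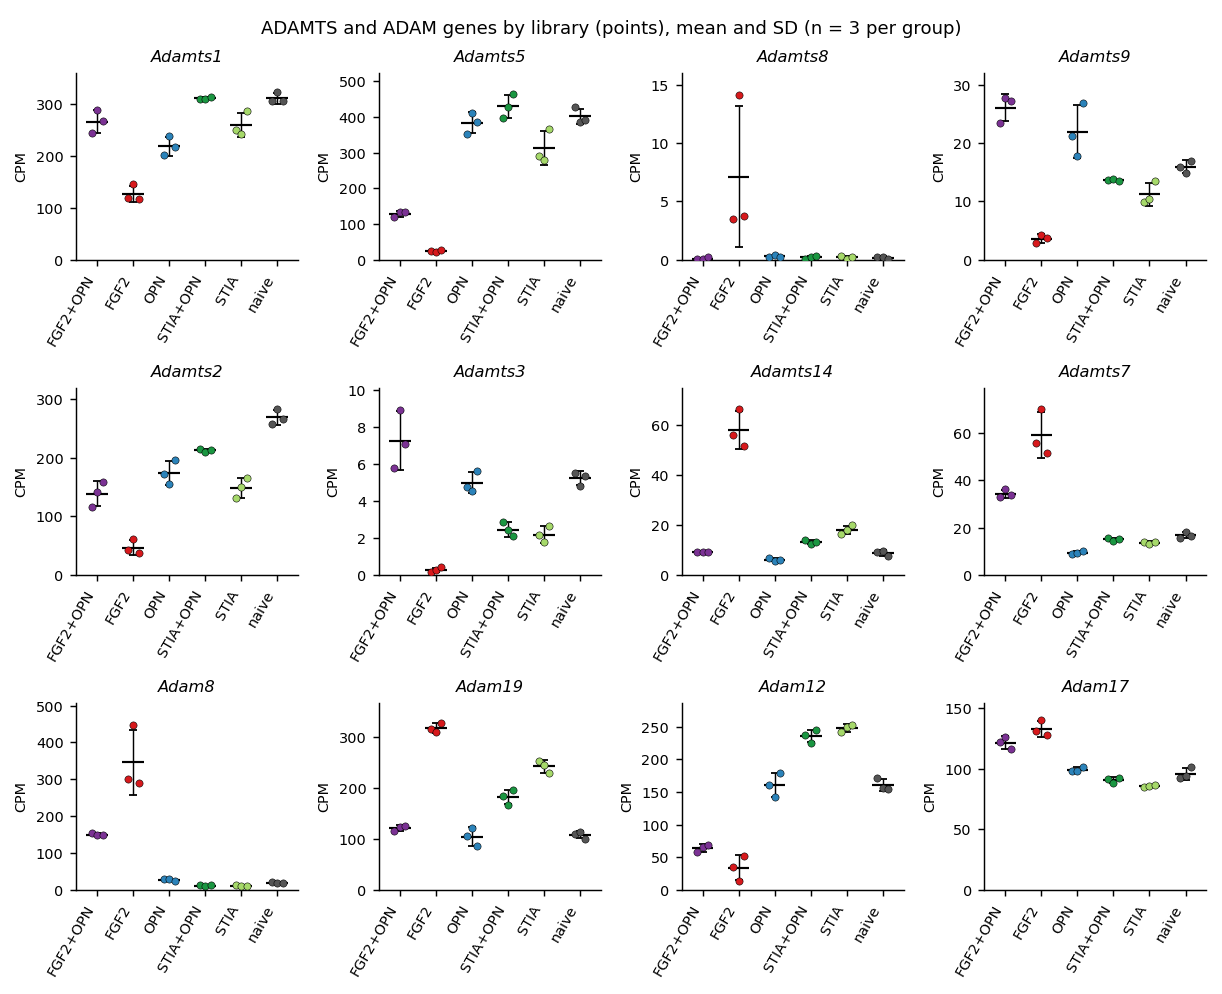
Level in CPM (y axes, from 0) of 8 ADAMTS and 4 ADAM genes in each library (points) of the 6 groups (x axis), with the group mean (line) and SD (bar, n = 3). Adamts8, Adamts14, Adamts7, Adam8 and Adam19 are highest with FGF2, while Adamts5, Adamts3, Adamts2 and Adam12 are lowest there.

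The ADAMs without proteinase activity, which are known as receptors for LGI proteins in the nervous system, were also present. Adam23 had 18.6, 19.4 and 19.3 CPM with FGF2+OPN, 7.43, 8.95 and 6.87 CPM with FGF2, 37.2, 35.5 and 45.8 CPM with OPN and 19.8, 22.1 and 22.5 CPM in naive cells. OPN libraries were above, and FGF2 libraries below, all naive ones, with 0.88 ± 0.11, adjusted p = 2.40e-06 for OPN against naive and -1.05 ± 0.11, adjusted p = 3.53e-08 for FGF2+OPN against OPN. Adam22 had 3.63, 3.82 and 4.44 CPM in unstimulated STIA cells and 6.56, 6.91 and 7.19 CPM in naive cells (-0.80 ± 0.16, adjusted p = 3.67e-04). Adam11 had 4.52, 5.15 and 4.52 CPM with FGF2+OPN, 3.73, 3.998 and 2.82 CPM with FGF2, 1.48, 1.31 and 1.37 CPM with OPN and 1.42, 2.41 and 2.43 CPM in naive cells. FGF2+OPN against naive was 1.18 ± 0.20, adjusted p = 3.57e-05, and against OPN 1.76 ± 0.20, adjusted p = 1.95e-07. The fall of Adam11 with OPN, -0.58 ± 0.22, adjusted p = 0.0488, rested on overlapping libraries and was not called in 11 of the 12 alternatives, with adjusted p-values of 0.051 to 0.186 there. Adam5, of a gene run on chromosome 8 that also holds Adam18, Adam3, Adam32 and Adam9 and is known mostly from testis, had 5.88, 5.75 and 5.72 CPM with FGF2+OPN, 1.899, 2.11 and 1.695 CPM with FGF2, 2.54, 1.78 and 2.07 CPM with OPN and 1.89, 2.09 and 2.26 CPM in naive cells. The FGF2+OPN libraries were above all others (1.47 ± 0.17, adjusted p = 3.06e-07 against naive and 1.60 ± 0.17, adjusted p = 5.24e-08 against FGF2). A further 17 ADAM genes, many of them known from testis, did not pass the filter, and 8 of these had no count in any library.

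The OPN effect was set side by side in STIA and naive cells, and the difference was tested as an interaction. Timp2 had an OPN effect of -0.013 ± 0.066 (adjusted p = 0.959) in STIA cells and 0.66 ± 0.066 (adjusted p = 1.43e-07) in naive cells, and the effects differed by -0.68 ± 0.093, adjusted p = 1.90e-05. Reck had 0.12 ± 0.084 (adjusted p = 0.546) in STIA cells and 0.58 ± 0.081 (adjusted p = 1.16e-05) in naive cells, with a difference of -0.46 ± 0.12, adjusted p = 0.00640. Timp3 rose in both, and by less in STIA cells, with a difference of -0.58 ± 0.15, adjusted p = 0.007801. Adam23 had a difference of -0.47 ± 0.16, adjusted p = 0.0352, a call lost without OPN replicate 3, STIA replicate 3, STIA+OPN replicate 1 or 3, or naive replicate 1 (adjusted p-values of 0.0686 to 0.126). For the ADAMTS and ADAMTS-like genes with a called difference it had the opposite sign. Adamts2 gave 1.15 ± 0.22, adjusted p = 0.001903, Adamts7 0.99 ± 0.15, adjusted p = 4.37e-05, and Adamtsl4 0.88 ± 0.071, adjusted p = 2.02e-08. Adamts4 and Adamts1, which fell with OPN in naive cells, had OPN effects of 0.089 ± 0.13 (adjusted p = 0.816) and 0.26 ± 0.082 (adjusted p = 0.109) in STIA cells (for Adamts1 called in the fit of the compared groups alone, adjusted p = 0.00319, and with no filter, adjusted p = 0.0106), and their differences were 0.78 ± 0.18, adjusted p = 0.00347 and 0.77 ± 0.12, adjusted p = 5.50e-05. Adamts5 gave 0.53 ± 0.13, adjusted p = 0.00579 and Mmp17 1.07 ± 0.18, adjusted p = 2.25e-04. The OPN treatments of STIA and naive cells share no libraries, whereas the naive libraries enter all comparisons with naive cells. The unstimulated STIA libraries enter both STIA against naive and the OPN effect in STIA cells, with opposite sign.

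**Figure D5:**
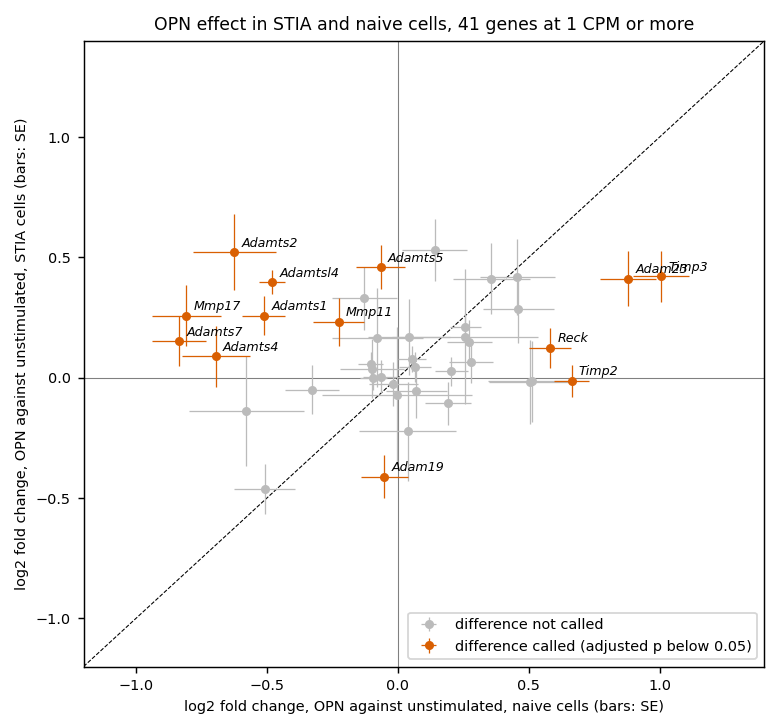
OPN effect as log2 fold change in STIA cells (y axis) against that in naive cells (x axis) for the 41 tested members with a mean of at least 1 CPM over the groups of each comparison; bars are SE, the dashed line marks equal effects and orange points are the 13 with a called difference. Timp2, Timp3, Adam23 and Reck lie right of the line, and Adamts2, Mmp17, Adamts7 and Adamtsl4 lie above it.

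Genes that work with these enzymes were read from lists, as counts beside the shares of all genes. Those shares were 29.1% higher and 28.1% lower with FGF2 against naive, and 15.2% and 16.5% with OPN against naive. With FGF2+OPN against FGF2 they were 27.3% and 31.2%. Of the ADAMTS and ADAMTS-like matrix partners (collagens, proteoglycans, fibrillins and COMP) 10 fell and 2 rose of 13 tested with FGF2 against naive (median -1.84), and 8 rose and 2 fell with FGF2+OPN against FGF2 (median 0.99). Acan, the core protein of aggrecan and the substrate of Adamts5, had 19.2 ± 3.68 CPM with FGF2+OPN, 5.52 ± 0.932 CPM with FGF2 and 17.1 ± 1.61 CPM in naive cells, and Vcan, versican, had 451 ± 44.4 CPM with FGF2+OPN, 125 ± 26.4 CPM with FGF2 and 446 ± 24.01 CPM in naive cells (SD, n = 3 each). Among 19 tested ligands and receptors shed by ADAMs 11 rose and 5 fell with FGF2 against naive (median 0.54), and 6 rose and 12 fell with FGF2+OPN against FGF2 (median -0.63). Hbegf, a ligand of the EGF receptor released by ADAMs, had 40.5 ± 6.21 CPM with FGF2+OPN, 214 ± 29.2 CPM with FGF2 and 38.5 ± 1.05 CPM in naive cells (SD, n = 3 each). Tnf, the classical ADAM17 substrate, was too low to be tested. Of the 7 tested partners of ADAM10 and ADAM17, 3 rose and 2 fell with FGF2 against naive, while 5 fell with OPN; Frmd8, which stabilises the iRhom-ADAM17 complex, had 106 ± 7.17 CPM with FGF2+OPN, 173 ± 4.98 CPM with FGF2, 75.3 ± 3.89 CPM with OPN and 85.2 ± 3.14 CPM in naive cells. Of the 5 proprotein convertases, which activate these zymogens, 1 rose (Furin) and 2 fell with FGF2 against naive. For the convertases the calls with FGF2 were near the 57.1% of all genes called. The 7 partners of ADAM10 and ADAM17 are so few that their share of calls is only coarse. Pcsk5 had 46.03 ± 11.1 CPM with FGF2+OPN, 4.02 ± 0.368 CPM with FGF2 and 58.5 ± 1.72 CPM in naive cells. All 5 tested MMP genes of the chromosome 9 cluster rose with FGF2 against naive (median 5.65). Among them was Mmp13, a collagenase, at 390.4 ± 64.1 CPM with FGF2 and 209 ± 8.33 CPM in naive cells. With FGF2+OPN against FGF2 0 of the 5 rose and 4 fell (median -2.41).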

How the data were processed

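RNA of mouse paw fibroblasts was measured in 18 libraries. Raw counts per gene were deposited, which the authors made with STAR and featureCounts on GRCm38 (mm10), per the submitters' processing notes; the sources used here do not give versions, strand setting or the treatment of multi-mapping reads, so reads of paralogs, such as the Adam6 and Adam26 copies, may be split between them. A deposited Length column gave the exon length. Of 32285 identifiers 32158 had a symbol in GENCODE M21; the other 127 took 0.0226% to 0.0375% of a library's counts.

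Library sizes were scaled by TMM and low genes removed by filterByExpr. Groups were fitted together with edgeR 4.0.16 in R 4.3.3 (robust quasi-likelihood F test, two-sided), checked on simulated counts. Benjamini-Hochberg adjustment ran over 15072 genes, with calls at an adjusted p below 0.05. Genes were named by rule: 14 genes in every comparison, and the largest called rises and falls (mean of at least 1 CPM) in each; fold changes of these 14 that were not called are printed in part. Members, lists and tests were chosen with earlier results of these data known. Alternatives were DESeq2 1.42.0, other scalings, no filter, fitting only the compared groups, a replicate block and leaving out each library. Promoter windows came from RefSeq. No replicate pair was identical.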

Additional observations from a re-analysis of the deposited data

Results flagged for a closer look

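The OPN effect differed between STIA and naive cells for several members by the interaction test of edgeR's quasi-likelihood fit, given here as the effect in STIA cells minus that in naive cells on the log2 scale. Of the 14 called differences, 11 belong to genes named by rule in this comparison. Among these the difference was negative for 4 genes: -0.68 for Timp2, -0.58 for Timp3, -0.47 for Adam23 and -0.46 for Reck. It was positive for 7 genes: 0.53 for Adamts5, 0.77 for Adamts1, 0.78 for Adamts4, 0.88 for Adamtsl4, 0.99 for Adamts7, 1.07 for Mmp17 and 1.15 for Adamts2. The other 3 were Adam19, with a negative difference, and Mmp11 and Adamts16, with positive ones. Among the tested members 26.4% had a called difference, a share near the 22.3% of all genes tested.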

How the results depend on the processing

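Of 2492 values of the named member comparisons under the alternatives, 2350 stayed on the same side of the threshold, 112 no longer passed and 30 newly passed. Among values called in the main fit or under the alternative, 0 changed direction. The direction of values called in neither was not checked. Leaving out 1 library at a time gave 37 to 40 calls for FGF2 against naive (38 with all libraries), 15 to 21 for OPN against naive (23), 31 to 35 for FGF2+OPN against naive (36), 22 to 28 for STIA against naive (29), 1 to 4 for OPN in STIA cells (6), 36 to 44 for FGF2+OPN against FGF2 (42), 33 to 36 for FGF2+OPN against OPN (35), 34 to 41 for the interaction (39) and 11 to 15 for the difference of the OPN effects (14). For OPN in STIA cells there were 11 calls with no filter on low counts (9 higher and 2 lower) and 12 in the fit of the compared groups alone (10 higher and 2 lower). Calls over all genes grew as well, from 174 higher and 153 lower to 524 and 424 with no filter. In the fit of the compared groups alone they were 652 higher and 715 lower. The cause was not tested. The replicate numbers showed no clear pairing of the libraries: of 45 same-numbered pairs, the correlations of deviations ran from -0.104 to 0.199, 2 were above 0.1, and 8 of 18 libraries correlated best with their own number. Such correlations cannot show that same-numbered libraries had no mouse or batch in common. With the replicate number as a block the calls were 39, 22, 36, 30, 6, 41, 35, 39 and 15 in the order above. On library totals alone the median of all genes moved to 0.14 for FGF2+OPN against naive and 0.12 for FGF2+OPN against OPN. Depth limits the members under about 1 CPM, whose values stand for few counts.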
